A study of Mus musculus with 4 samples.

Results

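Splicing factor genes were described in stem and progenitor cells from the bone marrow of mice with and without a mutant p53 allele. The genes were taken from the count table by symbol: the SR proteins (Srsf), the heterogeneous nuclear ribonucleoproteins (Hnrnp), SF3A and SF3B, U2AF, the PRPF proteins, the Snrp genes of the spliceosomal particles, the LUC7-like, TRA2, MBNL and CELF families, and Zrsr2, Ddx41 and Rbm39. There were 85 such genes among the 24421 genes of the table, and 83 of the 13296 genes with enough counts to test. Snrpn and Celf6 had 0 counts in all 4 libraries. Snrpn shares 1970 bases of its exons with Snurf on the same strand, so the counting may not separate them.

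The study compared LSK cells from p53R248W/+ mice (2 libraries) with LSK cells from WT mice (2 libraries), by sequencing their bulk messenger RNA. LSK cells are the lineage-negative, Sca1+ and Kit+ marrow fraction that holds blood stem cells and early progenitors. All mice were aged 13 to 15 months. The p53R248W/+ mice are heterozygous for R248W, an amino acid change in the part of p53 that contacts DNA. Whether libraries of one genotype came from different animals is not stated, and the p-values therefore reflect library-to-library spread, which may be technical. In bulk RNA, fewer cells of a type and less RNA per cell cannot be told apart.

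Splicing removes introns from precursor messenger RNA. The U1 and U2 particles first mark the ends of an intron, a further particle of U4, U5 and U6 joins them, and the PRPF proteins help build and activate the assembled spliceosome. Each of these particles except U6 carries a ring of Sm proteins. SR proteins mostly promote the use of nearby splice sites, hnRNP proteins often oppose it, and MBNL and CELF proteins switch alternative exons. Several of these genes, among them Srsf2, Sf3b1, U2af1 and Zrsr2, are recurrently mutated in human myeloid neoplasms. Counts per gene measure how much RNA each factor gene gives, and they measure neither isoforms nor splicing itself.

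Among the role groups and complexes described, the Sm ring had the largest median difference in the fit (lower in p53R248W/+), and all 3 MBNL genes were higher in p53R248W/+. No gene passed the test, and promoters of these 2 families are shown because most of their members lay on one side. Each sequence is the 250 bases before the gene start in RefSeq's table for build GRCm38.p6, read 5′ to 3′ on the gene's strand, and capitals mark motif matches on either strand. The GC box was searched as GGGCGG and the CCAAT box by the letters of its name. The E-box was searched as CACGTG, the core motif of ETS factors as CCGGAA, and the TATA box as TATAAA. Matches may overlap. Of the 7 ring genes, 5 are shown. They are Snrpd2 (chr7:19149588-19149837, plus strand), Snrpd3 (chr10:75517792-75518041, plus strand), Snrpe (chr1:133610281-133610530, minus strand), Snrpf (chr10:93589659-93589908, minus strand) and Snrpg (chr6:86371290-86371539, plus strand). Snrpb and Snrpd1 are named only.
Snrpd2: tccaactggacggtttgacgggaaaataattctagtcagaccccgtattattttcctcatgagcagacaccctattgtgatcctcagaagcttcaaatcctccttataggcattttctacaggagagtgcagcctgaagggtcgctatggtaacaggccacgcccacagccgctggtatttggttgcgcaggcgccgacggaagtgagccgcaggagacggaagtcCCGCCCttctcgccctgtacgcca
Snrpd3: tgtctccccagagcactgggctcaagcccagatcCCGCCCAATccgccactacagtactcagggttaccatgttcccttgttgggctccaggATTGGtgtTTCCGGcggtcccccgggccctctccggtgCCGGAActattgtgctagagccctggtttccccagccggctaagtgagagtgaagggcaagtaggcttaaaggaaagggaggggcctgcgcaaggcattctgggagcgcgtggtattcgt
Snrpe: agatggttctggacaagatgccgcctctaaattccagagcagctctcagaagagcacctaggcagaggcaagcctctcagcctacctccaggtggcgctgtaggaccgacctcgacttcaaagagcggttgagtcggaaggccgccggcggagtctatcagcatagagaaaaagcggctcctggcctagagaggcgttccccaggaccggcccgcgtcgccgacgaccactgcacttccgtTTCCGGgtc
Snrpf: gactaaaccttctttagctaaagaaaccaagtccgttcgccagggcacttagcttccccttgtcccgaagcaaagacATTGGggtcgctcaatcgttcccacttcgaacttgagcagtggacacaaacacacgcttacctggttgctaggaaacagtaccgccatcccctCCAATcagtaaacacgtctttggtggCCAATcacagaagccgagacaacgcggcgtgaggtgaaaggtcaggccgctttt
Snrpg: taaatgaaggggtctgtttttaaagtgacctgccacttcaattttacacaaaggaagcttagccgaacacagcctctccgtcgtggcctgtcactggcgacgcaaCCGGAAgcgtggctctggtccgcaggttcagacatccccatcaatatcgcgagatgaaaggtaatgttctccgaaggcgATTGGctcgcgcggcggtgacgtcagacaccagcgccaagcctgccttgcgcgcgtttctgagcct

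The MBNL family is shown in the same way, with Mbnl1 (chr3:60472580-60472829, plus strand), Mbnl2 (chr14:120275419-120275668, plus strand) and Mbnl3 (chrX:51205991-51206240, minus strand). For every gene the RefSeq start nearest the counted gene's 5′ end was used. In Mbnl3 that end is at 51205832, so its sequence does not directly precede the gene as counted.
Mbnl1: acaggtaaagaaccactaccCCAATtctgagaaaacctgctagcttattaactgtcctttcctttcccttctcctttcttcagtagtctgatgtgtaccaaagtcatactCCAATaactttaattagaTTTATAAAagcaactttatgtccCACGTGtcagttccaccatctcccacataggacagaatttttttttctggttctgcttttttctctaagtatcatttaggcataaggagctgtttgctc
Mbnl2: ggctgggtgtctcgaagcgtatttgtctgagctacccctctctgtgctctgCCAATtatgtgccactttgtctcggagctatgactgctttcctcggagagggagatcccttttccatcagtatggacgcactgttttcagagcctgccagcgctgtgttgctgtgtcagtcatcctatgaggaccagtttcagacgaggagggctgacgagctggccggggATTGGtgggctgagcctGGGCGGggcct
Mbnl3: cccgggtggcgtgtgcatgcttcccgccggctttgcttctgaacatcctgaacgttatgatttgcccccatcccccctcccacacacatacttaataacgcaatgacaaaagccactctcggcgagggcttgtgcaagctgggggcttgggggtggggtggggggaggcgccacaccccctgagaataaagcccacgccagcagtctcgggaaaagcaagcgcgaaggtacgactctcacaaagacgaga

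The 5 ring promoters held no TATA box or E-box. An ETS core was in 3 of them (Snrpd3, Snrpe and Snrpg) and a CCAAT box in 3 (Snrpd3, Snrpf and Snrpg). Mbnl1 held a TATA box (2 overlapping matches), an E-box and a CCAAT box, but no ETS core. It had 38% G and C, against 57.2% in Mbnl2, 59.2% in Mbnl3 and 52% to 60.8% in the ring promoters shown. Mbnl2 held 1 GC box and 2 CCAAT matches. Mbnl3 held none of the 5 motifs. Of the 85 genes, 74 had a promoter in the table. An ETS core was in 39.2% of these 74, against 22.6% of the promoters of 10017 tested genes, and CCAAT was in 44.6% against 36.2%. GC boxes were in 62.2% against 58.6%, TATA boxes in 10.8% against 6.52%, and E-boxes in 9.46% against 8.5%. The 10-base unit of the p53 response element matched in 2.7% against 5.9%, and the 2 members with a match were Snrpe and Celf5. These matches are letters only, and no binding was measured here.

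Libraries had 14820759 and 12111126 counts in p53R248W/+ and 14544290 and 14109906 counts in WT. A count of 3 corresponded to 0.202 to 0.248 CPM, which covers counting error only. CPM values put the libraries on one TMM-scaled total, and RPKM are CPM per kilobase of exon. Trp53, which carries the mutation, was at 245 and 332 CPM in p53R248W/+ and 362 and 302 CPM in WT. Gene counts do not separate its alleles and so do not check the genotype. The sort marker Kit was at 1182 and 1105 CPM in p53R248W/+, against 911 and 998 CPM in WT. Summed over 9 genes, markers of the sort were at 4346 and 4021 CPM in p53R248W/+, against 3291 and 3636 CPM in WT. Summed B cell markers (9 genes, Pax5 at 0) were at 45.8 and 24.4 CPM in p53R248W/+, against 8.44 and 13.7 CPM in WT. Most of this was Cd79b (20.2 and 12.1 CPM in p53R248W/+, 4.67 and 8.98 CPM in WT) and Blnk (18.3 and 5.70, against 1.39 and 2.38 CPM). Vpreb1 had counts in p53R248W/+ 1 only, and Igll1, at 2 to 13 counts, was lower in p53R248W/+. Endothelial and stromal markers (6 genes, Cxcl12 at 0) were at 133 and 119.8 CPM in p53R248W/+, against 93.9 and 62.1 CPM in WT. Most of this was Pecam1, at 104.7 and 100.4 CPM in p53R248W/+ and 70.4 and 50.7 CPM in WT, while Emcn overlapped. Col1a1 had at most 2 counts in any library, and Cdh5 and Lepr at most 1 outside p53R248W/+ 1. These 3 sums did not overlap between genotypes. The other lists overlapped: T and NK cell markers (7 genes, Cd3g at 0) summed to 67.7 to 82.6 CPM, erythroid markers (6 genes, Hba-a1 and Hbb-bs at 0) to 11.7 to 21.3 CPM and mast cell and basophil markers (6 genes, none at 0) to 27.4 to 61.5 CPM over all libraries. Neutrophil and monocyte markers (9 genes, none at 0) stood apart in WT 1, at 771 and 665 CPM in p53R248W/+ and 1447 and 416 CPM in WT, mostly from Mpo, which was at 628 and 544 CPM in p53R248W/+ and 1273 and 314 CPM in WT. The part of these sums in the results below was not tested.

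Splicing factor genes were among the more abundant transcripts. Their median level was 42.7 RPKM, against 10.02 RPKM over all tested genes, and 38 of the 83 (45.8%) were in the top 10% of genes by RPKM, while 8 were below the median. As a group they took 2.02% and 2.18% of counts in p53R248W/+ libraries and 2.12% and 2.10% in WT libraries. Srsf5 was the highest member at 737 RPKM, followed by Srsf2 at 669 RPKM, Hnrnph1 at 459.7 RPKM and Hnrnpa2b1 at 269 RPKM. By role, the median level was 101 RPKM for the SR and TRA2 proteins, 71.1 RPKM for hnRNP proteins and 26.5 to 41.0 RPKM for LUC7-like, 3′ splice site, SF3, PRPF, Snrp and MBNL or CELF genes. The low end held Celf3, Celf4, Celf5 and Srsf12, each under 2 RPKM on average.

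**Figure D1:**
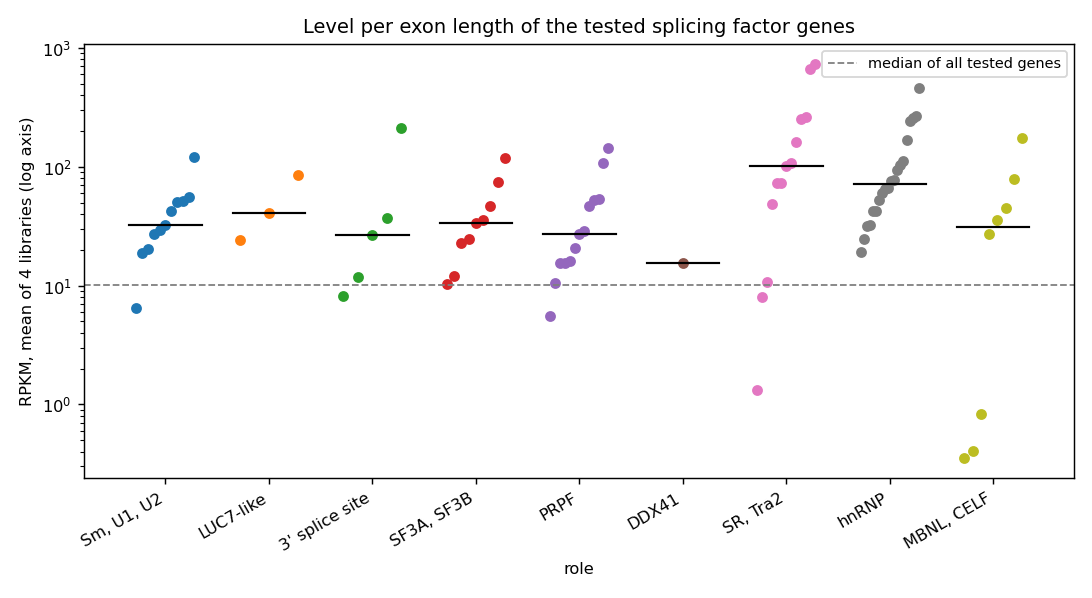
Mean level of each tested splicing factor gene in RPKM (log axis), by role, over the 4 libraries; bars are role medians and the dashed line is the median of all tested genes. SR and hnRNP genes hold the highest levels, up to 737 RPKM for Srsf5, and most members lie above the median of all tested genes.

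No splicing factor gene passed the test between genotypes. With edgeR's quasi-likelihood test, 0 of the 83 were called at an adjusted p of 0.05, against 0% of all 13296 genes (0 called; smallest adjusted p 0.824). DESeq2 called 6 genes and limma-voom 0, and each called 0 members. At an unadjusted p under 0.05 there were 3 members, against 780 of all genes (5.87%). These were Snrpd2 and Snrpd1, lower in p53R248W/+, and Celf3, higher. In the fit, 47 members were lower and 36 higher in p53R248W/+, or 56.6% lower against 50% of all genes. The median log2 fold change was -0.04, against -0.00 over all genes. Values of the 2 genotypes did not overlap for 32 members, 12 higher and 20 lower in p53R248W/+. Over all genes, 33.6% did not overlap, 16.9% higher and 16.6% lower.

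The members were measured with smaller errors than most genes. The median SE of a log2 fold change was 0.22 for members, against 0.46 for all genes. The 95% interval lay within a 2-fold change for 61 members (73.5%), against 34.5% of all genes, and within 1.5-fold for 39 (47%) against 10.1%. They were also more abundant, and counting error is smaller for abundant genes. Between replicates, the median absolute log2 ratio of a member was 0.243 in p53R248W/+ and 0.163 in WT, against 0.423 and 0.426 for all genes. Between the genotype means it was 0.118 for members and 0.300 for all genes. Means of 2 libraries vary less than single libraries, so these values cannot be set directly against the replicate ratios. In p53R248W/+ 1, 33 members had their lowest value and 11 their highest, and in WT 1, 29 had their highest and 21 their lowest.

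**Figure D2:**
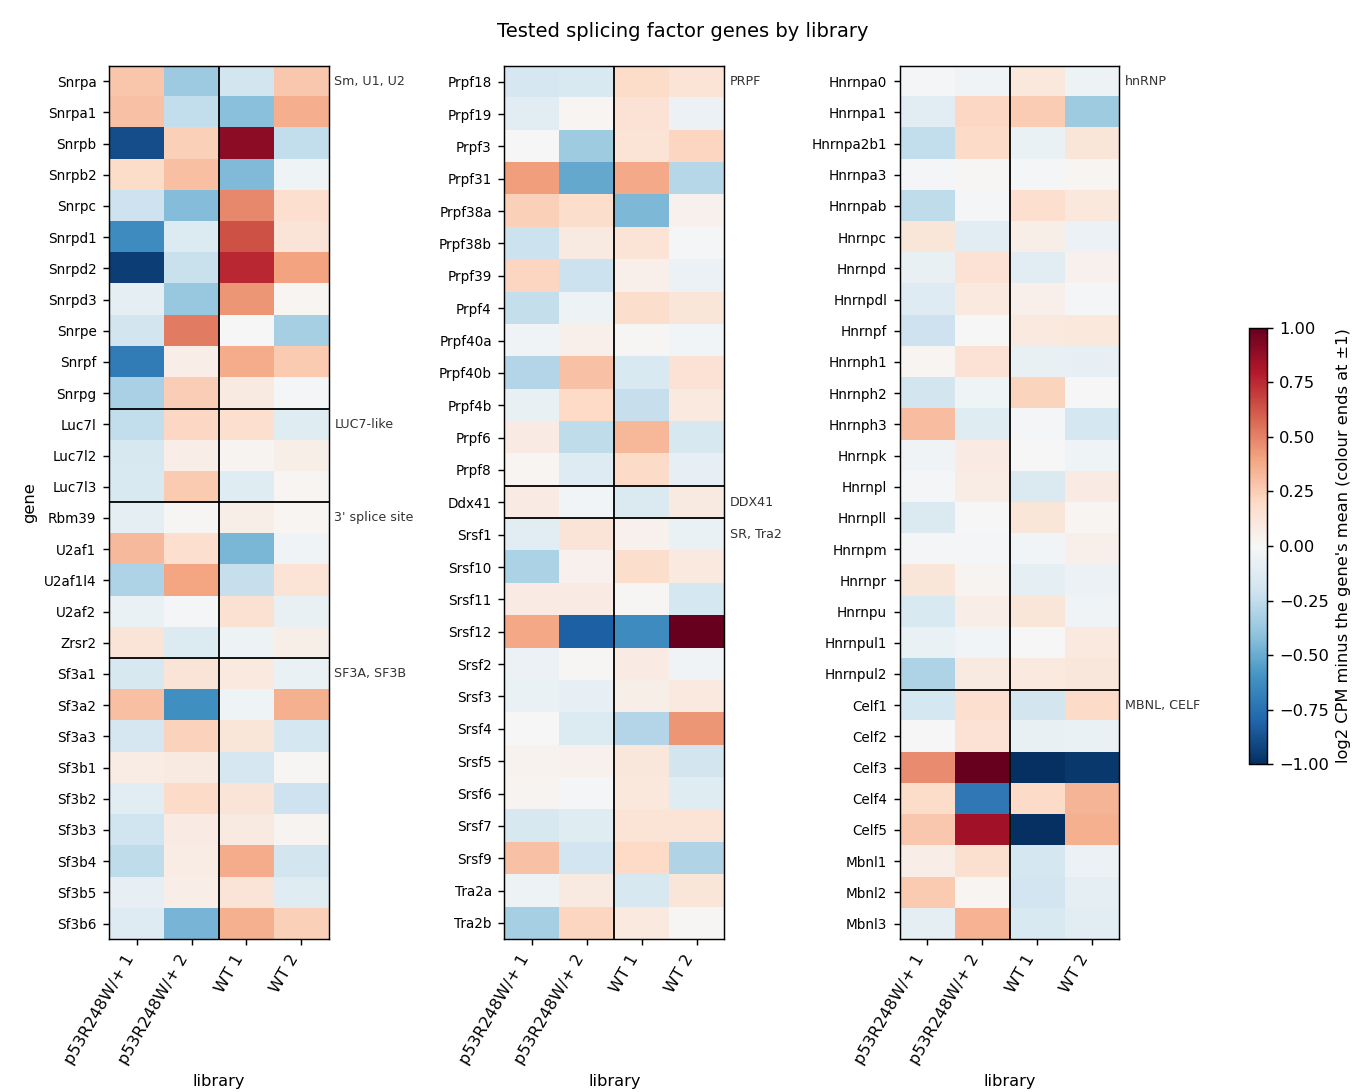
Level of each of the 83 tested genes in each library, as log2 CPM minus the gene's mean over the 4 libraries (p53R248W/+ libraries left of the line, WT right), ordered by role. Most rows are pale; Snrpb, Snrpd1 and Snrpd2 are lowest in p53R248W/+ 1 and highest in WT 1, and the 3 Mbnl rows have both p53R248W/+ values above both WT values.

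**Figure D3:**
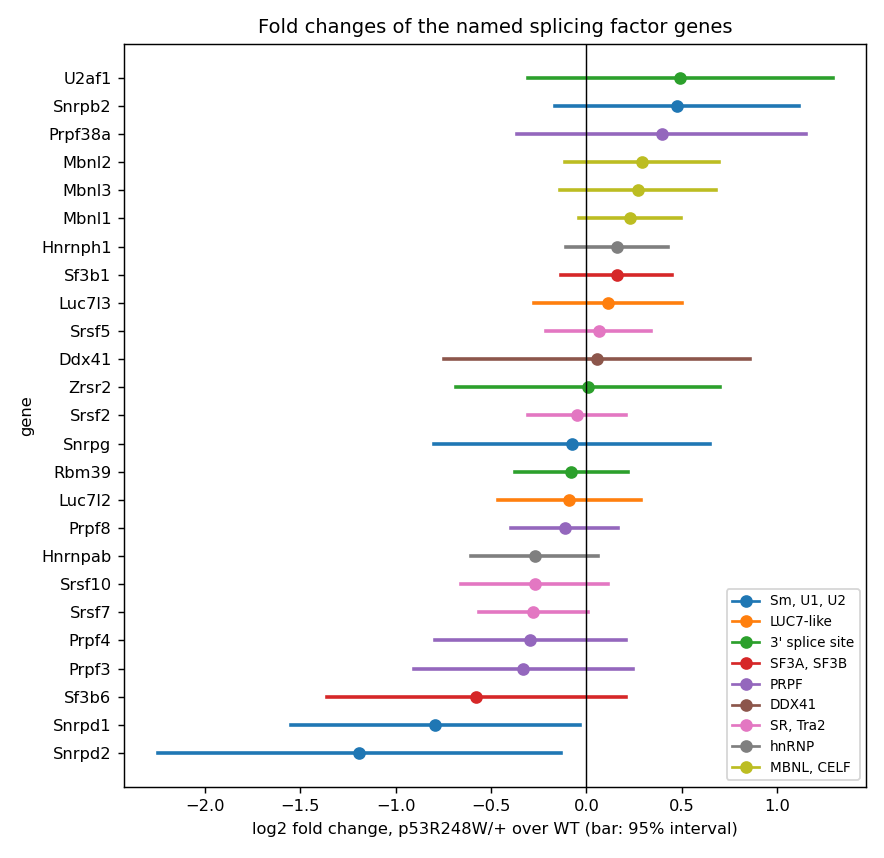
Fitted log2 fold change of p53R248W/+ over WT, with its 95% interval, for the 25 splicing factor genes named by rule. Genes are ordered by fold change and coloured by role. The intervals of Snrpd2 and Snrpd1 leave out 0 before adjustment, and those of Hnrnpab and Hnrnph1 stay within a 2-fold change.

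Among proteins of the spliceosomal particles, 8 of 11 tested genes were lower in p53R248W/+ in the fit and 3 were higher (median log2 fold change -0.48). Of the 7 Sm ring genes, 6 were lower and 1 higher, with a median of -0.68. Snrpd2 (mm10 chromosome 7, 19149838 to 19152726, plus strand, 3 exon blocks) encodes SmD2, the ring protein that pairs with SmD1. It was at 9.51 and 16.0 CPM in p53R248W/+, against 32.0 and 24.97 CPM in WT. Both p53R248W/+ libraries lay below both WT libraries, with a log2 fold change of -1.19 ± 0.50 (SE, n = 2 per genotype; 95% interval -2.25 to -0.13; adjusted p = 0.824, edgeR quasi-likelihood test). Snrpd1, which encodes SmD1, was at 28.3 and 40.0 CPM in p53R248W/+, against 68.6 and 48.0 CPM in WT. Its log2 fold change was -0.79 ± 0.36 (SE; adjusted p = 0.824, edgeR quasi-likelihood test), again without overlap.

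The other ring genes are named after their values were seen, to complete the ring. Snrpb, which encodes the SmB proteins, was at 10.9 and 24.4 CPM in p53R248W/+ and 38.8 and 17.3 CPM in WT, so the genotypes overlapped. Snrpd3 was at 17.9 and 14.6 CPM in p53R248W/+, against 26.2 and 19.4 CPM in WT, and its log2 fold change was -0.48 ± 0.49 (SE). Snrpf was the lowest, at 2.90 and 5.29 CPM in p53R248W/+ and 6.63 and 6.10 CPM in WT, and shares 687 of its 813 exon bases with other genes. Snrpe went the other way in the fit, at 21.6 and 35.3 CPM in p53R248W/+ and 24.5 and 19.4 CPM in WT, with overlap. Snrpg, the highest ring gene per length at 121 RPKM, was at 37.6 and 56.1 CPM in p53R248W/+ and 50.4 and 46.9 CPM in WT, with a log2 fold change of -0.07 ± 0.34 (SE).

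The sum over the ring was 129 and 192 CPM in p53R248W/+ and 247 and 182 CPM in WT, so the summed levels overlapped. p53R248W/+ 1 was the lowest library and WT 1, which also had the highest neutrophil and monocyte marker sum, the highest. The ring's median log2 fold change was -0.24 without WT 1, -0.73 without WT 2, -0.27 without p53R248W/+ 1 and -1.05 without p53R248W/+ 2. Within each library the ring's makeup can be given without any scaling between libraries. Per length, Snrpd2 made up 8.27% and 9.45% of the ring transcripts in p53R248W/+, against 15.9% and 15.9% in WT. Snrpe made up 18.6% and 20.6% in p53R248W/+, against 12.1% and 12.2% in WT, and Snrpg 40.6% and 41.1% against 31.1% and 37.0%. Snrpd1 made up 14.3% and 13.7% in p53R248W/+, against 19.9% and 17.8% in WT. The shares of Snrpd2, Snrpe, Snrpg, Snrpd1 and Snrpf did not overlap, and those of Snrpd3 and Snrpb did. Snrpf's share rests on 43 to 95 counts. By level, 4 of the 7 ring genes did not overlap, against 33.6% of all genes, and shares have no such background here. A share depends on the other ring genes too, and Snrpg's own level hardly differed in the fit (-0.07). With 2 libraries against 2 an exact permutation test cannot give a two-sided p below 0.333. Transcripts at least 95% identical over 200 bases exist for Snrpd2 (2), Snrpd1 (1), Snrpe (1), Snrpf (1) and Snrpg (3), nearly all pseudogenes. Snrpb and Snrpd3 have none, and the counts of the 5 others may hold or lack reads from these copies.

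**Figure D4:**
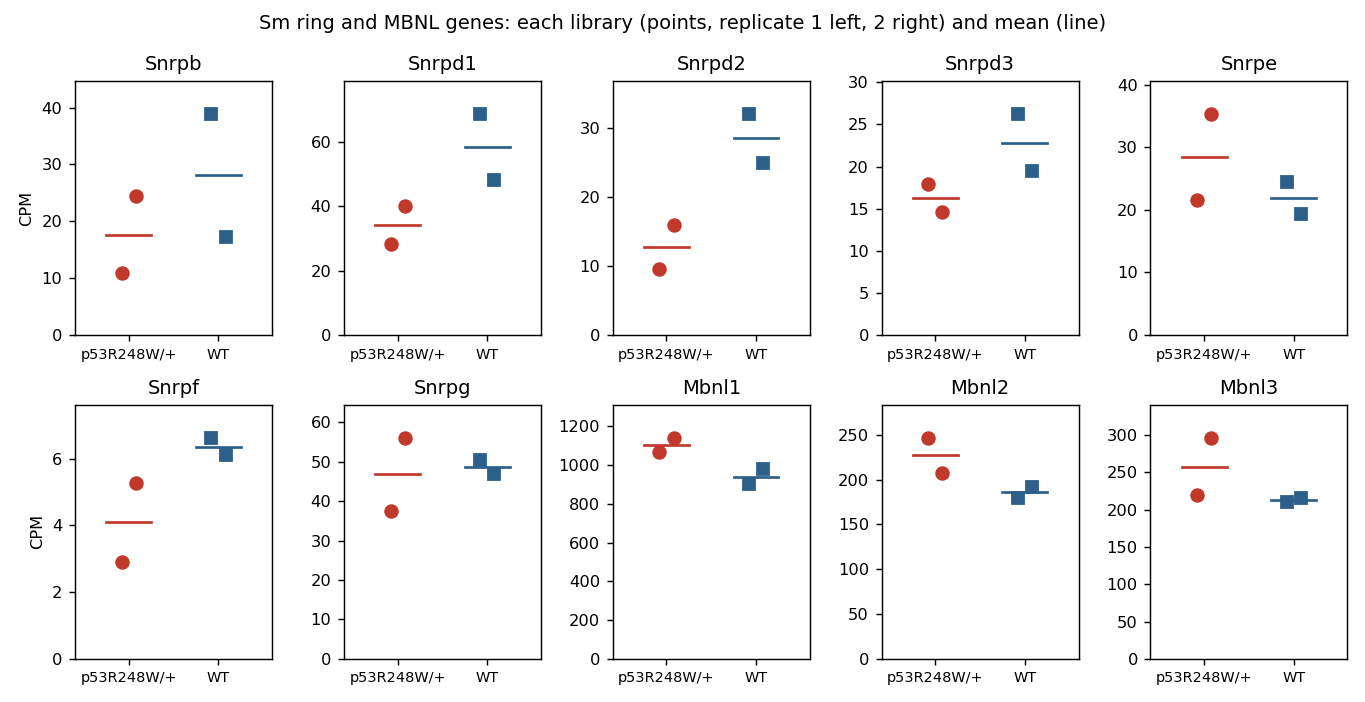
CPM in each library for the 7 Sm ring genes and the 3 MBNL genes, with p53R248W/+ points left of WT points. Snrpd2 lies at 9.51 and 16.0 CPM in p53R248W/+ and at 32.0 and 24.97 CPM in WT, and Mbnl1 at 1066 and 1140.4 CPM in p53R248W/+ and at 904 and 978 CPM in WT.

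Genes for proteins specific to U1 or U2 had no common direction. Snrpb2, a protein of the U2 particle, was higher in p53R248W/+, at 68.7 and 74.8 CPM against 44.3 and 58.7 CPM in WT (log2 fold change 0.48 ± 0.30, SE). It has no near-identical copy and no shared exon. Snrpc, a U1 protein named after its values were seen, was at 11.9 and 10.2 CPM in p53R248W/+, against 19.5 and 15.6 CPM in WT. It has 3 near-identical pseudogene copies, so its counts are uncertain. The LUC7-like genes, whose proteins work with U1 at the 5′ splice site, overlapped between genotypes. Luc7l2, lost in some human myeloid neoplasms, was at 235 and 276 CPM in p53R248W/+ and 268 and 274 CPM in WT. It has 1 near-identical copy. Luc7l3, the highest of the family per length, was at 251 and 333 CPM in p53R248W/+ and 256 and 282 CPM in WT.

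At the 3′ splice site, U2af1, the subunit of U2AF that reads the AG at the intron's end, was higher in p53R248W/+, without overlap. It was at 44.0 and 39.5 CPM in p53R248W/+, against 25.4 and 34.2 CPM in WT (log2 fold change 0.49 ± 0.38, SE; 95% interval -0.31 to 1.29). It has 3 near-identical pseudogene copies. Zrsr2, which serves the minor spliceosome, was at 53.1 and 44.3 CPM in p53R248W/+ and 46.8 and 50.7 CPM in WT, with a log2 fold change of 0.01 ± 0.33 (SE). Rbm39, a U2AF-like coactivator, was at 591 and 635 CPM in p53R248W/+, against 655 and 639 CPM in WT, a log2 fold change of -0.08 ± 0.14 (SE).

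In the SF3A and SF3B complexes, which hold U2 on the branch point, 3 of 9 genes were higher and 6 lower in p53R248W/+ in the fit. This split turned to 6 higher and 3 lower without WT 1 (median log2 fold change 0.073) and without p53R248W/+ 1 (median 0.060). Sf3b1, the member most often mutated in myelodysplastic syndromes, was at 768 and 774 CPM in p53R248W/+, against 648 and 734 CPM in WT. The genotypes did not overlap, but the difference was small, with a log2 fold change of 0.16 ± 0.14 (SE; 95% interval -0.13 to 0.45). Sf3b6, which touches the branch point, was at 33.2 and 26.2 CPM in p53R248W/+, against 46.4 and 42.9 CPM in WT (log2 fold change -0.58 ± 0.37, SE). The other members ran from -0.22 to 0.07 in the fit, so the subunits of SF3B did not share one direction.

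Of the 13 PRPF genes, 5 were higher and 8 lower in p53R248W/+ in the fit, with a median log2 fold change of -0.09, which was 0.018 without WT 1. Prpf8, the scaffold at the catalytic centre, was at 1087 and 980.2 CPM in p53R248W/+ and 1224 and 1014 CPM in WT, with overlap. Prpf3 and Prpf4 encode partners in the U4/U6 particle, and both were lower in p53R248W/+ without overlap. Prpf3 was at 78.6 and 61.4 CPM in p53R248W/+, against 86.3 and 91.0 CPM in WT (log2 fold change -0.33 ± 0.27, SE). Prpf4 was at 91.1 and 103 CPM in p53R248W/+, against 121 and 117 CPM in WT (log2 fold change -0.29 ± 0.24, SE). Prpf38a, a factor needed for spliceosome activation, was higher, at 48.0 and 45.9 CPM in p53R248W/+ against 29.7 and 41.9 CPM in WT. Ddx41, a helicase with inherited mutations in human myeloid neoplasms, was at 36.1 and 33.3 CPM in p53R248W/+ and 30.7 and 36.3 CPM in WT, with overlap.

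The SR and TRA2 genes split nearly evenly, 6 higher and 7 lower in p53R248W/+. Srsf7 had the smallest p of this role. It was at 616 and 632 CPM in p53R248W/+, against 757 and 756 CPM in WT, a log2 fold change of -0.28 ± 0.14 (SE; 95% interval -0.57 to 0.01; adjusted p = 0.824, edgeR quasi-likelihood test). Srsf10, a splicing regulator that acts as a repressor when dephosphorylated, was at 213 and 273 CPM in p53R248W/+, against 299.9 and 285 CPM in WT. Srsf3, named after its values were seen, was at 761 and 752 CPM in p53R248W/+, against 830.2 and 853 CPM in WT. Srsf2, mutated in chronic myelomonocytic leukaemia, was at 1222 and 1281 CPM in p53R248W/+ and 1348 and 1241 CPM in WT, and its interval ran from -0.31 to 0.21. Srsf5, the highest per length, was at 1241 and 1249.9 CPM in p53R248W/+ and 1313 and 1066 CPM in WT. Near-identical copies exist for Srsf3 (4), Srsf10 (2) and Srsf5 (1), so their counts are uncertain. Per length, Srsf5 and Srsf2 together gave most of the SR transcripts in every library: Srsf5 was 33.5% and 33.0% in p53R248W/+ and 32.5% and 29.2% in WT, and Srsf2 was 28.7% and 29.4% in p53R248W/+ and 28.9% and 29.5% in WT.

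Of the 20 hnRNP genes, 8 were higher and 12 lower in p53R248W/+ in the fit, with a median log2 fold change of -0.03. All 20 intervals lay within a 2-fold change and 14 within 1.5-fold. Hnrnph1, which binds runs of G, was at 1034 and 1126 CPM in p53R248W/+, against 968 and 965 CPM in WT, a log2 fold change of 0.16 ± 0.13 (SE). Per length it made up 21.5% and 20.9% of hnRNP transcripts in p53R248W/+, against 18.7% and 18.9% in WT. Hnrnpab was at 352 and 417 CPM in p53R248W/+, against 472 and 454 CPM in WT, a log2 fold change of -0.27 ± 0.16 (SE), and 54 of its exon bases lie in Phykpl. Hnrnpa3, with 28 near-identical copies, and Hnrnpa1, with 9, are uncertain for this reason. Over all splicing factor genes, 24 of 85 have such a copy. Exon bases shared with other genes were more in Hnrnph3 (1764 of 2168), Hnrnpa1 (1759 of 2190) and Hnrnpa3 (1458 of 5224) than in Hnrnpab, so their counts are uncertain too.

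In the MBNL family, whose proteins bind the same short RNA motifs and share targets, all 3 genes were higher in p53R248W/+ and none overlapped. Mbnl1 (mm10 chromosome 3, 60472830 to 60629748, on the plus strand in 13 exon blocks) was at 1066 and 1140.4 CPM in p53R248W/+, against 904 and 978 CPM in WT. Its log2 fold change was 0.23 ± 0.13 (SE; 95% interval -0.04 to 0.50; adjusted p = 0.825, edgeR quasi-likelihood test). Mbnl2 was at 246 and 208 CPM in p53R248W/+, against 179.7 and 192 CPM in WT (log2 fold change 0.29 ± 0.19, SE). Mbnl3 was at 219 and 296 CPM in p53R248W/+, against 210.0 and 216 CPM in WT (log2 fold change 0.27 ± 0.19, SE). The family summed to 1532 and 1644 CPM in p53R248W/+ and 1293 and 1386 CPM in WT. Mbnl1 gave 69.8% and 71.1% of the family's transcripts per length in p53R248W/+, against 71.0% and 71.5% in WT. All 3 stayed higher under median-ratio and total-count scaling. They also stayed higher with any one library left out, which their lack of overlap made nearly certain, but the sizes moved. Mbnl3 was at 0.041 without p53R248W/+ 2 and 0.48 without p53R248W/+ 1, and Mbnl2 at 0.41 and 0.16 in the same fits, while Mbnl1 ran from 0.17 to 0.30 over the 4 fits. None has a near-identical copy or a shared exon.

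The CELF genes, which often act against MBNL proteins on the same exons, were mostly Celf2 and Celf1. Celf2 was named after its values were seen, and was at 745 and 828 CPM in p53R248W/+, against 710.4 and 712 CPM in WT. Celf3, a mostly neuronal member also named after its values were seen, had 21 and 45 counts in p53R248W/+ and 2 and 3 counts in WT. This is near the detection floor, and its fitted fold change depends on the prior count and is not given (adjusted p = 0.824, edgeR quasi-likelihood test). Celf5 had 24 and 32 counts in p53R248W/+ and 2 and 25 counts in WT.

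**Figure D5:**
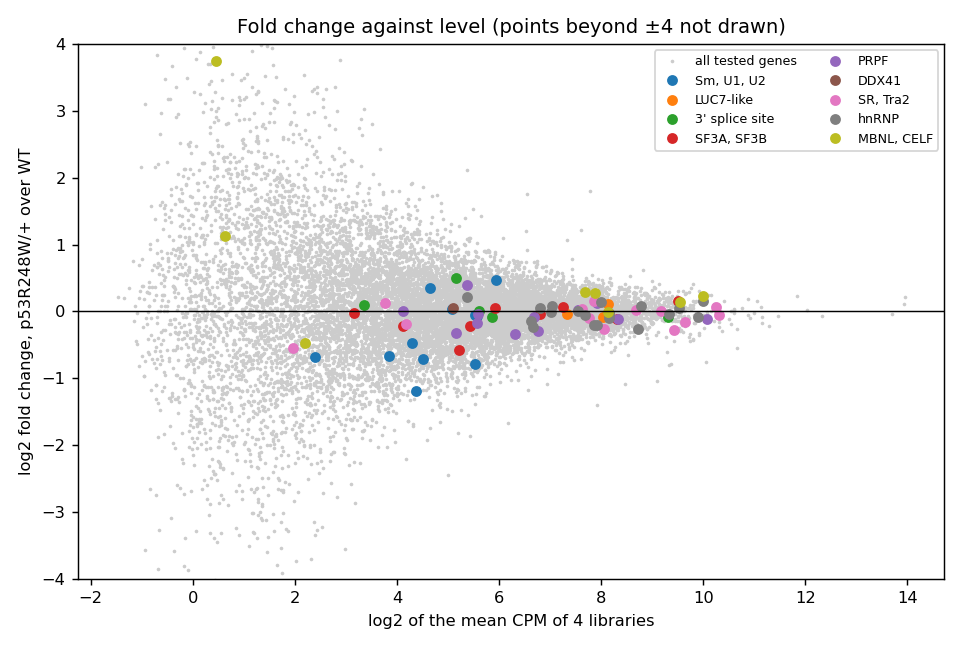
Fitted log2 fold change of p53R248W/+ over WT (vertical axis, points beyond ±4 not drawn) against log2 of the mean CPM (horizontal axis), for members coloured by role and all tested genes in grey. The median absolute log2 fold change was 0.12 for members and 0.32 for all genes, and the members farthest from 0 are at low CPM.

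Other genes of the splicing pathway, from lists chosen with results of these data known, were read beside the members. Of 125 tested, 43 were higher and 82 lower in p53R248W/+ in the fit (65.6% lower, against 50% of all genes), with a median log2 fold change of -0.09. None was called by edgeR's quasi-likelihood test. An unadjusted p under 0.05 was found for 6 of them (4.8%), a share no higher than the 5.87% of all genes. Other spliceosome subunits were lower in 44 of 59 genes (median -0.16), and exon junction complex genes in 7 of 9 (median -0.24). Small-particle assembly genes were lower in 10 of 16 (median -0.14), genes of SR protein kinases and a phosphatase in 4 of 8 (median 0.06) and other splicing regulators in 17 of 33 (median -0.01).

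The 6 genes at an unadjusted p under 0.05 were Msi2, Eif4a3, Txnl4a, Ddx23, Gemin5 and Sap18, named after their values were seen. Msi2 was higher in p53R248W/+ and the other 5 were lower, and Sap18 shares exon bases with another gene. Msi2, an RNA-binding protein that sustains blood stem cells, was at 1107 and 932 CPM in p53R248W/+, against 737 and 803 CPM in WT (log2 fold change 0.41 ± 0.14, SE). Eif4a3, the helicase of the exon junction complex, was at 59.6 and 76.0 CPM in p53R248W/+, against 123 and 100.6 CPM in WT. Gemin5, which delivers small nuclear RNAs to the complex that loads the Sm ring, was at 74.2 and 64.1 CPM in p53R248W/+, against 124 and 89.4 CPM in WT. Prmt5, which methylates SmB, SmD1 and SmD3, was at 58.9 and 61.4 CPM in p53R248W/+, against 84.0 and 90.9 CPM in WT. Smn1, the core of the loading complex, went the other way in the fit, at 16.7 and 22.4 CPM in p53R248W/+ against 11.4 and 8.70 CPM in WT. Prmt5 and Smn1 were also named after their values were seen, and adjusted p-values of these 8 genes were 0.824 to 0.835 (edgeR quasi-likelihood test).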

How the data were processed

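Bulk mRNA of sorted LSK cells was measured in 4 libraries, 2 per genotype, grouped by the labels. The deposited table holds raw counts per gene made by the authors. Read alignment with STAR 2.7.10a, quality control with FastQC 0.11.5, counting with featureCounts (Subread 2.0.3), edgeR 3.40.2 and build mm10 are named, per the submitters' processing notes. Strand setting and treatment of reads with several alignments are not given in the sources used here, so overlapping genes and copies are uncertain.

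Genes were filtered with filterByExpr (minimum count 10, minimum total 15), scaled by TMM and compared by edgeR 4.0.16's quasi-likelihood test (robust) under R 4.3.3. Genotype was the single term, with Benjamini-Hochberg adjustment over all genes tested (threshold 0.05). The script was tested on simulated data. Alternatives were median-ratio and total-count scaling, DESeq2 1.42.0, limma-voom (limma 3.58.1), no filter, a stricter filter, a replicate block, each library left out, and members with no shared exon base. The legacy quasi-likelihood method was added after seeing the data. Copies were sought with BLAST 2.17.0 in the transcripts of GENCODE M21.

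Members, roles and lists were chosen with earlier results of these data known. Genes were named if they passed; otherwise up to 8 per direction with the smallest unadjusted p, 5 CPM or more on average and no overlap, the highest per length in each role, genes recurrently mutated in human myeloid neoplasms, and Trp53. Others are marked as named after their values were seen.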

Additional observations from a re-analysis of the deposited data

How the results depend on the processing

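With 0 genes called by edgeR's quasi-likelihood test, DESeq2 called 6 genes and the fit without p53R248W/+ replicate 2 called 1, while every other setting called 0, so that leaving out each library gave 0 to 1. None of these calls was a splicing factor gene, and members called stayed at 0 in every setting. Unadjusted p under 0.05 was reached by 780 genes (3 members), by 787 (3) in DESeq2, 618 (4) in limma-voom, 638 (2) in the legacy method and 336 to 1083 (0 to 2) with a library left out. Members lower in p53R248W/+ numbered 47, and 42 to 57 with a library left out, with medians from -0.09 to -0.01. Over those fits the lower share of all genes was 46.2% to 53.1%, and without p53R248W/+ replicate 1 50.6% of members were lower, against 53.1% of all genes, so the excess of lower members turned round. Leaving out members that share exon bases left 42 of 74 lower, median -0.04. Replicate numbers are shared between genotypes, and nothing in the labels pairs them. Same-numbered libraries' deviations correlated at r = -0.01 across 13296 genes, and with the replicate block 758 genes were at an unadjusted p under 0.05, 0 were called and 47 members were lower.

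In all 4 fits with a library left out, 21 members stayed lower and 13 higher. These were the 20 lower and 12 higher members without overlap between genotypes, plus Snrpb and Celf5. A gene without overlap can hardly turn sign when a library is left out, and 33.6% of all genes did not overlap. How many of all genes kept their direction was not counted. Of the 25 splicing factor genes named by rule, 17 kept their direction in every setting. None of these 17 overlapped between genotypes, and most were chosen for that, so leaving out a library could hardly turn their sign. With a library left out, many of these still moved by over 1.5 times: Sf3b1 ran from 0.073 to 0.26, U2af1 from 0.29 to 0.73, Snrpb2 from 0.29 to 0.70, Prpf38a from 0.17 to 0.67, Hnrnph1 from 0.096 to 0.22, Prpf3 from -0.53 to -0.17, Srsf10 from -0.46 to -0.097, Hnrnpab from -0.40 to -0.15, Rbm39 from -0.13 to -0.027 and Snrpd1 from -1.05 to -0.51. Those of Snrpd2 (-1.58 to -0.83), Sf3b6 (-0.77 to -0.43), Prpf4 (-0.39 to -0.20) and Srsf7 (-0.30 to -0.26) moved less. Log2 fold changes turned sign with a library left out for Snrpg (-0.37 to 0.21), Luc7l3 (-0.10 to 0.31), Luc7l2 (-0.21 to 0.025), Prpf8 (-0.24 to 0.028), Ddx41 (-0.060 to 0.19), Srsf5 (-0.070 to 0.23), Srsf2 (-0.10 to 0.014) and Zrsr2 (-0.14 to 0.12). Ddx41 was -0.0080 without p53R248W/+ replicate 1, and Zrsr2 was -0.05 without WT replicate 1. Zrsr2 was -0.0027 in DESeq2 and -0.0010 in the legacy method. The cause was not tested. With 2 libraries per genotype and a biological coefficient of variation of 46.0%, a p that misses the threshold does not show that levels were equal.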
